A study of Rattus norvegicus with 86 samples.

Results

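The genes described here encode 3 subunits of the N-methyl-D-aspartate (NMDA) receptor: Grin1 (ENSRNOG00000011726), Grin2a (ENSRNOG00000033942) and Grin2b (ENSRNOG00000008766). They were taken from the deposited table by these identifiers, and all 3 were among its 17180 genes. The table holds RNA-Seq of the nucleus accumbens core, the ventral striatal region that receives cortical, hippocampal and amygdalar glutamate input, from Heterogeneous Stock (HS) rats, an outbred population bred from inbred founder strains. There are 75 libraries, each from 1 rat: 38 from females and 37 from males, and 11 further samples of the 86 in the series were labelled as removed. There was no treatment group, since every animal was left untreated, and the labels divide the rats only by sex and a rat batch number.

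Rat batch 2 held 12 rats (2 females and 10 males), rat batch 3 held 20 (13 and 7), rat batch 4 held 26 (14 and 12), rat batch 5 held 1 female and rat batch 6 held 16 (8 and 8). The labels do not say what the batch number marks. Rats are named below by sex and a number that follows the order of the sample records and has no other meaning. The tissue was dissected from both hemispheres and homogenized whole, so fewer cells of a type and less RNA per cell cannot be told apart. The table pairs no gene names with its identifiers and no map between them was used here, so markers of accumbens cell types and other glutamate receptor genes were not analysed.

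The NMDA receptor is a tetrameric cation channel that opens when it binds both glutamate and a co-agonist, glycine or D-serine, while depolarization relieves its magnesium block. GluN1, the product of Grin1, is the obligatory subunit, which binds the co-agonist and is present in every receptor. GluN2A and GluN2B, the products of Grin2a and Grin2b, are alternative glutamate-binding subunits that set deactivation time, conductance and partners at the synapse. In forebrain neurons GluN2B predominates early in life and GluN2A rises during postnatal maturation, and in the accumbens the receptor is known for its part in synaptic plasticity of medium spiny neurons and in responses to addictive drugs.

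Recovered total counts per library ran from 8455344 to 26145108 with a median of 17883320. The lowest totals were those of male rat 25 in rat batch 2 and male rat 24 in rat batch 6 (10372187). For rat batches 2, 3, 4 and 6 the median totals were 16119184, 16818981, 18751354 and 18769177, in that order. The values analysed are log2(scaled count + 1), where the scaled count is the gene's read count after the upper-quartile adjustment, and they are not divided by transcript length, so they were compared between rats and not between subunits. The columns of the table fall into 3 runs, in each of which the rat identifiers ascend from the start. Run 1 holds rat batch 2 and 7 rats of rat batch 3, run 2 holds 12 rats of rat batch 3, and run 3 holds the remaining rat of rat batch 3 together with rat batches 4, 5 and 6. Whether a run marks a step in the laboratory is not given in the sources used here.

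Grin1 varied little between rats. Its log2 level ran from 12.85 in female rat 5 (rat batch 6) through a median of 13.23 to 13.53 in male rat 32 (rat batch 2), with a mean of 13.24 ± 0.15 (SD, n = 75). In scaled counts this was 7380 to 11809, a 1.6-fold range, and 4202 to 13608 recovered reads lay behind each value.

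Grin2a varied most of the subunits in log2 units. Its log2 level ran from 6.21 in female rat 6 (rat batch 3) through a median of 7.66 to 8.92 in female rat 27 (rat batch 4), with a mean of 7.59 ± 0.54 (SD, n = 75). The scaled counts were 73 and 484 at the ends, a 6.63-fold range. Between 63 and 683 recovered reads lay behind each value, so no library was near 0.

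Grin2b lay between the other two in its spread. Its log2 level ran from 7.79 in female rat 4 (rat batch 3) through a median of 8.60 to 9.41 in female rat 27 (rat batch 4), with a mean of 8.60 ± 0.29 (SD, n = 75). The scaled counts were 220 and 681, a 3.10-fold range. Female rat 27 thus had the highest value of both GluN2 genes, while its Grin1 level of 13.22 was close to the median.

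**Figure D1:**
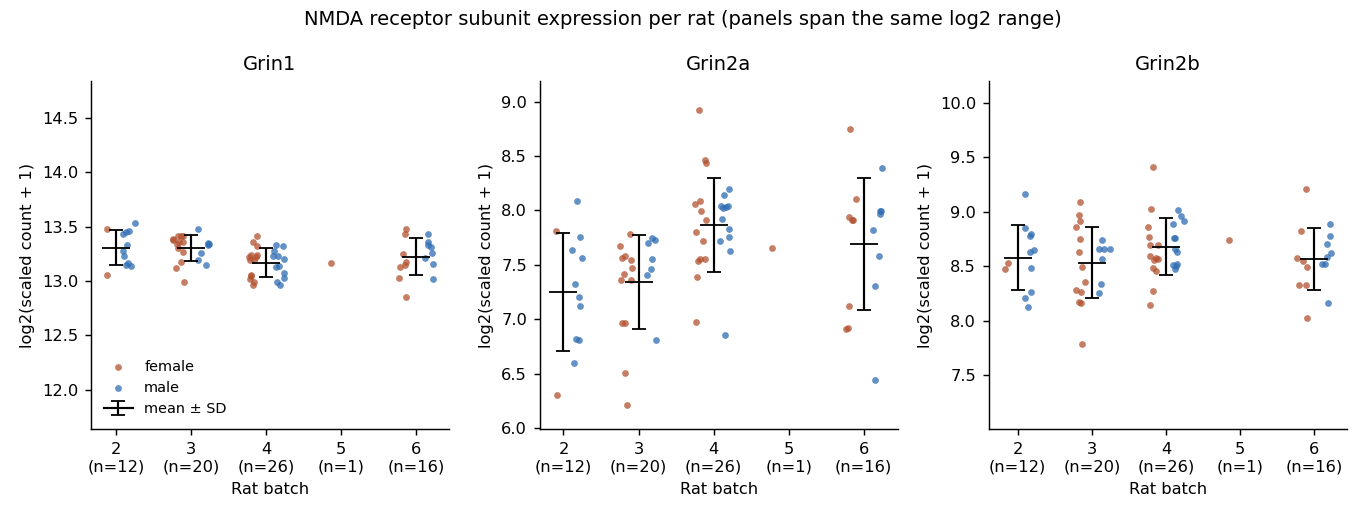
Level of each subunit gene in every rat, as log2(scaled count + 1) on the vertical axis, by rat batch on the horizontal axis, with females in brown, males in blue and black bars for the mean and SD of a rat batch. The 3 vertical axes span the same number of log2 units but start at different levels. Grin1 points stay within 12.85 to 13.53, while Grin2a points spread from 6.21 to 8.92 and sit higher in rat batches 4 and 6 than in 2 and 3.

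The first comparison asked whether the sexes differed. None of the 3 genes passed the test between females and males, and their ranges overlapped almost completely. Over all genes, limma called 15 of 17180 at an adjusted p under 0.05 (0.0873%) in this comparison, which had rat batch as a covariate and 74 libraries.

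For Grin1, the lowest, median and highest log2 levels were 12.85, 13.23 and 13.48 in the 38 females and 12.97, 13.25 and 13.53 in the 37 males. The fitted difference, male minus female, was 0.02 ± 0.035 (SE) with a 95% interval from -0.05 to 0.09 and an adjusted p of 0.97 by limma. The interval thus covers only small changes of this obligatory subunit.

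For Grin2a, the corresponding values were 6.21, 7.57 and 8.92 in females and 6.44, 7.71 and 8.39 in males. Both the lowest and the highest Grin2a level of the study were in females. The fitted difference was 0.07 ± 0.12 (SE) with an interval from -0.17 to 0.30 and an adjusted p of 0.957 by limma, which is wide enough to hold a modest difference in either direction.

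For Grin2b, the values were 7.79, 8.56 and 9.41 in females and 8.12, 8.65 and 9.17 in males, so the male range lay inside the female one. The fitted difference was 0.06 ± 0.07 (SE) with an interval from -0.08 to 0.20 and an adjusted p of 0.937 by limma. With 20 expression components (the main axes along which whole libraries differ) as covariates, it was -0.72 ± 0.27 (SE, adjusted p of 0.641 by limma). That of Grin2a was then -0.57 ± 0.32 (SE, adjusted p of 0.802 by limma). Both changed sign and lay outside the intervals above, without a call. Within rat batches 3, 4 and 6 the limma fits gave no call for any of the subunits either.

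The interaction of sex and rat batch, which asks whether the sex difference varied between rat batches 3, 4 and 6, gave an adjusted p of 0.9999 for each of the 3 genes by limma. Across the table it called 0 of 17180 genes (0%) with limma, against 506 at an unadjusted p under 0.05 and 1 gene when rat batch 2 was included. In rat batch 6 the male and female medians of Grin2a were 7.89 and 7.91, and in rat batch 3 they were 7.55 and 7.42. In rat batch 2, which had only 2 females, Grin2a was 6.30 in female rat 35 and 7.81 in female rat 24, the former below and the latter within the male range of 6.60 to 8.09.

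The second comparison asked whether the rat batches differed. Grin2a and Grin1 passed the moderated F test and Grin2b did not, against a background in which 53.5% of all genes passed. Membership of that majority therefore says little about these genes in particular. With limma's F test, Grin2a had an F of 7.04 and an adjusted p of 0.00113 and ranked 4759th of 17180 genes. Grin1 had an F of 4.20 and an adjusted p of 0.0188, ranking 7704th. Grin2b had an F of 1.17 and an adjusted p of 0.398, ranking 14104th. In 13 alternative fits the call was kept in 10 for Grin2a and in 7 for Grin1, and Grin2b passed in 0. With 20 expression components as covariates the adjusted p was 0.936 for Grin2a and 0.969 for Grin1 by limma. Over all genes that fit called 10, against 9192 in the main fit. The components are computed from the same expression values and take up differences between rat batches. Their use thus cannot show whether these genes differ between rat batches. The adjusted p of Grin1 was 0.413 with quantile normalization and 0.0573 with total count as a covariate, by limma.

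Grin2a, the subunit linked with mature synapses, had lower medians in rat batches 2 and 3 than in rat batches 4 and 6, though not every pair passed a test. Its lowest, median and highest log2 levels were 6.30, 7.26 and 8.09 in the 12 rats of rat batch 2 and 6.21, 7.46 and 7.78 in the 20 of rat batch 3. They were 6.86, 7.92 and 8.92 in the 26 rats of rat batch 4 and 6.44, 7.91 and 8.75 in the 16 of rat batch 6. The median scaled counts were 152.5 and 175.5 in the former batches and 241 and 239.5 in the latter. All 4 ranges overlapped, but only 3 of 12 rats in rat batch 2 and 5 of 20 in rat batch 3 were above the median of all 75 libraries, against 19 of 26 in rat batch 4 and 10 of 16 in rat batch 6.

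Between pairs of rat batches, Grin2a was 1.56-fold higher in rat batch 4 than in 2, a log2 difference of 0.64 ± 0.17 (SE) with an interval from 0.30 to 0.99 and an adjusted p of 0.00348 by limma. It was 1.43-fold higher in rat batch 4 than in 3, a log2 difference of 0.52 ± 0.14 (SE) with an interval from 0.23 to 0.81 and an adjusted p of 0.00234 by limma. It was 1.38-fold higher in rat batch 6 than in 2, a log2 difference of 0.46 ± 0.19 (SE) with an adjusted p of 0.0468 by limma, and this call was lost without the 2 libraries of lowest total count (log2 difference 0.43, adjusted p of 0.0901 by limma), with quantile normalization (0.43, adjusted p of 0.0601) and with voom (0.39, adjusted p of 0.133), at a similar size. The log2 difference of 0.34 ± 0.16 (SE) between rat batches 6 and 3 did not pass (adjusted p of 0.0817 by limma), and neither did 0.12 ± 0.18 between 3 and 2 nor -0.18 ± 0.15 between 6 and 4. The shares of all genes called were 26.9% for 4 against 2, 39.8% for 4 against 3, 34.8% for 6 against 2, 43.1% for 6 against 3, 3.44% for 3 against 2 and 3.87% for 6 against 4.

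Grin1 moved the other way and by less. Its lowest, median and highest log2 levels were 13.05, 13.30 and 13.53 in rat batch 2 and 12.99, 13.34 and 13.47 in rat batch 3. They were 12.96, 13.20 and 13.41 in rat batch 4 and 12.85, 13.23 and 13.48 in rat batch 6. Above the median of all libraries lay 15 of 20 rats of rat batch 3 and 7 of 26 of rat batch 4.

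Grin1 was 1.10-fold higher in rat batch 3 than in 4, where the log2 difference, 4 minus 3, was -0.13 ± 0.042 (SE) with an interval from -0.22 to -0.05 and an adjusted p of 0.00909 by limma. The difference between rat batches 4 and 2 was also -0.13 ± 0.051 (SE), with an adjusted p of 0.047 by limma. No other pair passed for Grin1. The latter call was lost with voom (log2 difference -0.13, adjusted p of 0.0538) and with total count as a covariate (-0.12, adjusted p of 0.0918 by limma), at about the same size. Quantile normalization, which forces all libraries to 1 distribution, ended both calls, with log2 differences of -0.04 and -0.06 and adjusted p-values of 0.506 and 0.344 by limma.

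Grin2b gave no call in any of the 6 pairs. Its lowest, median and highest log2 levels were 8.12, 8.58 and 9.17 for rat batch 2, with 7.79, 8.60 and 9.09 for rat batch 3. The same values were 8.14, 8.64 and 9.41 for rat batch 4, with 8.02, 8.56 and 9.21 for rat batch 6. The medians thus lay within a narrow band while each rat batch spread over more than a log2 unit. The fitted differences ran from -0.11 ± 0.091 (SE; 6 minus 4) to 0.14 ± 0.085 (4 minus 3), the latter with an interval from -0.03 to 0.31. The lone rat of rat batch 5, which no fit used, had log2 levels of 13.16 for Grin1, 7.66 for Grin2a and 8.74 for Grin2b.

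**Figure D2:**
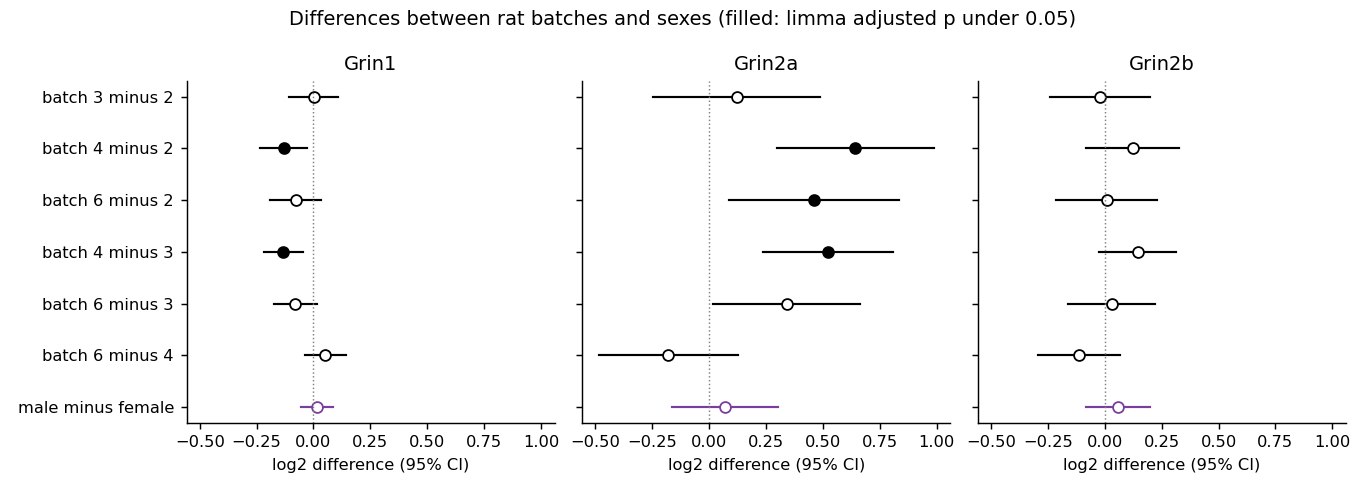
Fitted log2 difference of each subunit gene between every pair of rat batches (black) and between the sexes (violet) on the horizontal axis, with 95% confidence intervals from limma and filled points where the adjusted p was under 0.05. Filled points appear for Grin2a in 3 pairs, to the right of 0, and for Grin1 in 2 pairs, to the left of 0, and none appear for Grin2b or for sex.

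The batches that differed are also those that sit in different column runs of the table, as all rats of rat batches 4 and 6 are in run 3 and all but 1 of rat batches 2 and 3 are not. With column run added to the fit, the adjusted p for rat batch was 0.907 for Grin2a and 0.628 for Grin1 by limma, and 169 genes were called in place of 9192. The log2 differences of Grin1 then changed sign, to 0.24 for 4 minus 2 and 0.17 for 4 minus 3. So did that of Grin2a for 6 minus 2, to -0.08, while Grin2a was at 0.10 for 4 minus 2 and 0.16 for 4 minus 3. None of them was past the threshold (adjusted p of 0.989 or above by limma). In that fit these differences rest on 1 rat, female rat 3, the only one of rat batches 2 and 3 in run 3. Its Grin1 log2 level was 12.99. The changes of sign cannot be read as a reversal. Rat batch and column run therefore cannot be told apart for these differences. Without rat batch 4 the adjusted p was 0.0761 for Grin2a and 0.309 for Grin1, and without rat batch 3 that of Grin1 was 0.138, by limma. Rat batch 3 is the batch split between runs, and there run 2 minus run 1 gave a log2 difference of 0.25 ± 0.18 (SE) for Grin2a, -0.09 ± 0.046 for Grin1 and -0.10 ± 0.15 for Grin2b over 12 and 7 rats, with adjusted p-values of 0.448, 0.271 and 0.766 by limma.

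The subunits were next compared as ratios within each rat, taken as the difference of their log2(scaled count + 1) values. The scaling of a library cancels in such a ratio except for the 1 added to each count. The log2 ratio of Grin2a to Grin2b, the pair that is exchanged during maturation, ran from -2.22 in female rat 35 to -0.05 in female rat 31 with a median of -0.97, a 4.5-fold range over 75 rats. The absolute ratio also carries the unequal lengths of the transcripts, so it was read between rats alone. In female rat 35 the scaled counts were 78 for Grin2a and 368 for Grin2b, and in female rat 31 they were 344 and 357. These rats thus had similar Grin2b and differed in Grin2a.

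The median Grin2a to Grin2b ratio was lower in rat batches 2 and 3 than in rat batches 4 and 6. The lowest, median and highest log2 ratios were -2.22, -1.22 and -0.37 for rat batch 2, with -1.96, -1.11 and -0.48 for rat batch 3. They were -1.61, -0.83 and -0.05 for rat batch 4, with -1.72, -0.86 and -0.12 for rat batch 6. As linear ratios the medians were 0.429, 0.464, 0.561 and 0.552. The 4 ranges overlapped. Differences between rat batches made up 18.1% of the variance of this ratio (n = 74, permutation p = 0.00234 with rat batch permuted within sex, adjusted p = 0.00702 over the 6 ratio tests). All such shares of variance, here and below, were taken after sex means were removed. The sex difference of the ratio was 0.01 log2 units (male minus female, permutation p = 0.917 with sex permuted within rat batch).

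The ratio of Grin2a to Grin1 had the widest range. It ran from a log2 of -7.20 in female rat 6 to -4.30 in female rat 27 with a median of -5.59, which is 7.48-fold. The medians by rat batch were -6.08, -5.78, -5.18 and -5.45 in rat batches 2, 3, 4 and 6, and 3 of 20 rats in rat batch 3 lay above the median of all libraries, against 19 of 26 in rat batch 4. Differences between rat batches made up 25.5% of its variance (permutation p = 7e-05, adjusted p = 0.00042), and the sex difference was 0.05 log2 units (permutation p = 0.695).

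The ratio of Grin2b to Grin1 varied least. It ran from a log2 of -5.57 in female rat 4 to -3.80 in female rat 27 with a median of -4.63, which is 3.39-fold. The medians by rat batch were -4.77, -4.76, -4.49 and -4.63. Differences between rat batches made up 13.8% of its variance (permutation p = 0.0121, adjusted p = 0.0243) and the sex difference was 0.04 log2 units (permutation p = 0.577). After adjustment the 3 sex tests of ratios had permutation p-values of 0.834 to 0.917. The share of other gene pairs whose ratio would pass between rat batches was not computed. On levels, 53.5% of all genes passed limma's F test between rat batches. The 3 ratio calls between rat batches therefore say little about these genes in particular.

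Rat batch and column run cannot be told apart where the batches compared sit in different runs, and within a run only 1 pair of batches could be compared. Rat batches 2 and 3 in run 1 gave an adjusted permutation p of 0.998 for each ratio (unadjusted 0.859, 0.890 and 0.998). This used 19 rats, with only 2 females in rat batch 2, and rat batch was permuted within sex. It thus could not show that a difference is absent. Rat batches 4 and 6 in run 3 (42 rats) gave adjusted permutation p-values of 0.758 for Grin2a to Grin2b, 0.582 for Grin2a to Grin1 and 0.372 for Grin2b to Grin1. Without rat batch 4 (48 rats) all 3 ratio calls were lost. Without rat batch 3 (54 rats) only that of Grin2a to Grin1 was kept. Rat batch made up 13.4% of the variance of Grin2a to Grin2b without rat batch 4 and 14.03% without rat batch 3. In the same order it was 13.7% and 18.55% for Grin2a to Grin1, and 2.45% and 11.1% for Grin2b to Grin1.

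**Figure D3:**
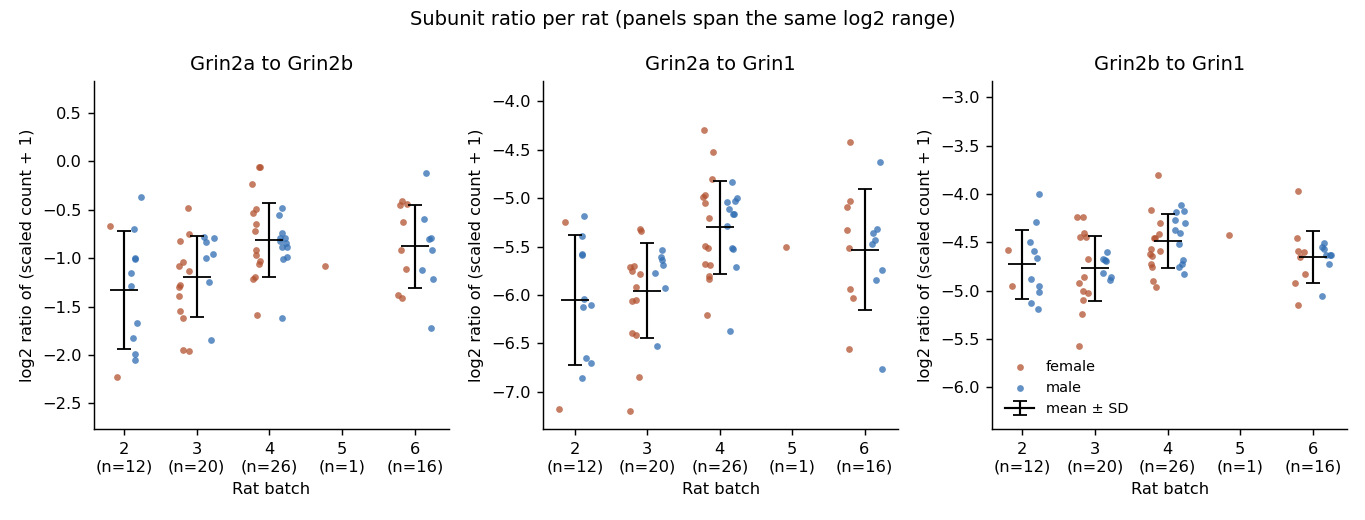
Log2 ratio of 2 subunit genes in each rat, each as its scaled count plus 1, by rat batch, with females in brown, males in blue and black bars for the mean and SD. The Grin2a to Grin2b and Grin2a to Grin1 ratios sit lower in rat batches 2 and 3 (medians of -1.22, -1.11, -6.08 and -5.78) than in 4 and 6 (-0.83, -0.86, -5.18 and -5.45), and points of all batches overlap.

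The spread between rats was then set beside that of other genes at a like level, after removing the means of rat batch and sex. This is a description, with no test. Grin2a had a residual SD of 0.49 log2 units, which corresponds to a factor of 1.41, and 96.2% of the 1931 genes within 0.5 log2 units of its mean had a smaller one (median 0.24). Grin2b had a residual SD of 0.29, with 87.6% of 2338 genes below it (median 0.19). Grin1 had a residual SD of 0.14, with 57.0% of 214 genes below it (median 0.14), so the obligatory subunit was near the middle of its level class.

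Counting error was a small part of these spreads. The SD that reads alone would give was 0.11 for Grin2a, 0.077 for Grin2b and 0.015 for Grin1, which is 5.19%, 6.86% and 1.14% of the residual variance. When 20 expression components, the main axes along which whole libraries differ, were removed as well, the residual SD fell to 0.21 for Grin2a, 0.18 for Grin2b and 0.08 for Grin1. Those components took 81.9% of the residual variance of Grin2a, 61.3% of that of Grin2b and 66.5% of that of Grin1. The share of genes at a like level with a smaller SD was then 74.6% for Grin2a, 85.4% for Grin2b and 62.6% for Grin1.

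**Figure D4:**
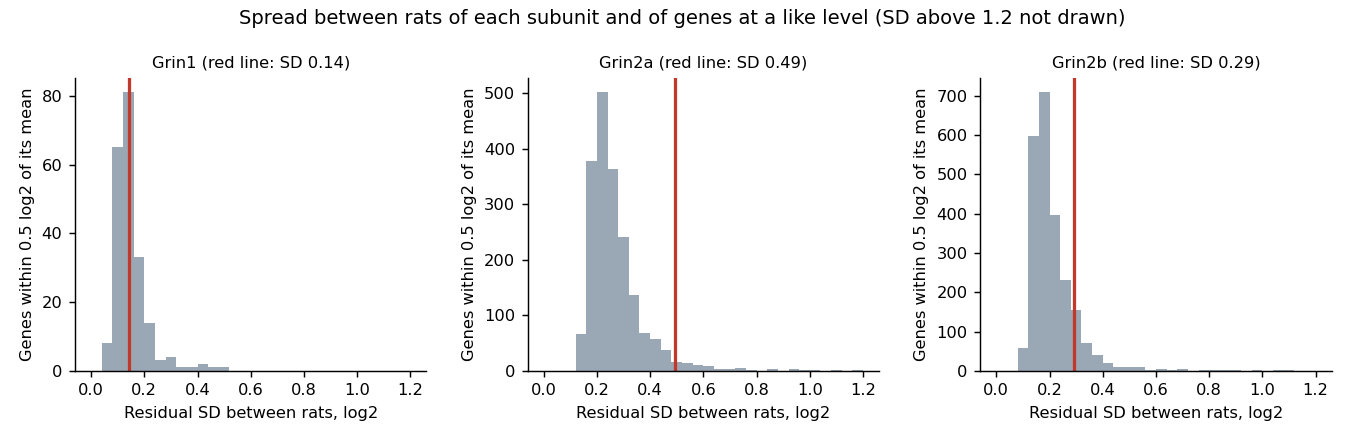
Number of genes (vertical axis) by residual SD between rats in log2 units (horizontal axis), for genes whose mean level is within 0.5 log2 units of each subunit gene, which is marked by a red line. The Grin2a line at 0.49 lies in the upper tail of its class, that of Grin2b at 0.29 above the main peak, and that of Grin1 at 0.14 within the peak.

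Lastly, the subunits were compared across rats within each rat batch, which gave 12 correlations, and 2 passed after adjustment. The share of other gene pairs that would pass within these rat batches was not computed. The count of 2 therefore says little about these genes in particular. A comparison with other genes is given further below, for residuals pooled over rat batches only. Grin2a and Grin2b, the alternative GluN2 subunits, rose and fell together in rat batch 6. Over its 16 rats Pearson's r was 0.76 (permutation p = 0.00083, adjusted p = 0.00996 over the 12) and Spearman's rho 0.60 (permutation p = 0.0163). The coefficient was 0.61 (permutation p = 0.0221) without the 2 rats farthest from the Grin2a median. At the low end of that batch, male rat 10 had log2 levels of 6.44 for Grin2a and 8.16 for Grin2b, and at the high end female rat 23 had 8.75 and 9.21.

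In the other rat batches the relation of Grin2a and Grin2b did not pass. In rat batch 4, r was 0.48 over 26 rats (permutation p = 0.0136, adjusted p = 0.0542) and rho 0.40 (permutation p = 0.0483), and r was 0.23 without the 2 farthest rats. In rat batch 3, r was 0.40 over 20 rats (permutation p = 0.0781, adjusted p = 0.193) and rho 0.23 (permutation p = 0.324), and r was -0.05 without the 2 farthest. In rat batch 2, r was 0.03 over 12 rats (permutation p = 0.935, adjusted p = 0.935) and rho -0.09 (permutation p = 0.784), and r was -0.14 without the 2 farthest. Leaving out the rats at the ends also narrows the range of Grin2a. With sex means removed, the coefficient in rat batch 4 passed (r = 0.49, adjusted permutation p = 0.046), and it was 0.21 without the 2 farthest rats (permutation p = 0.3185). Whether the 4 coefficients differ from each other was not tested.

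Grin2a and Grin1 were inversely related in rat batch 2. Over its 12 rats r was -0.76 (permutation p = 0.00529, adjusted p = 0.0317) and rho -0.76 (permutation p = 0.00587), and r was -0.83 without the 2 rats farthest from the Grin2a median. The rat with the lowest Grin2a there, female rat 35 at 6.30, had a Grin1 level of 13.48. The rat with the highest Grin2a, male rat 31 at 8.09, had a Grin1 level of 13.27, near the batch median, and the next highest, female rat 24 at 7.81, had the lowest Grin1 level of the batch, 13.05. With counts scaled by the library total in place of the upper quartile, r was -0.71 and the adjusted permutation p 0.0684. The coefficients for this pair were -0.40 in rat batch 3 (rho -0.45, permutation p = 0.0802 for r and 0.0474 for rho), -0.26 in rat batch 4 (rho -0.35, permutation p = 0.204 and 0.084) and 0.04 in rat batch 6 (rho -0.06, permutation p = 0.875 and 0.826). Their adjusted permutation p-values were 0.193, 0.350 and 0.935, and without the 2 farthest rats r was -0.34, -0.34 and -0.32 in the same order.

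Grin2b and Grin1 gave no correlation that passed. The r was -0.13 in rat batch 2 (rho 0.01, permutation p = 0.693 for r and 0.973 for rho), 0.13 in rat batch 3 (rho 0.16, permutation p = 0.595 and 0.491), 0.15 in rat batch 4 (rho 0.06, permutation p = 0.481 and 0.775) and 0.41 in rat batch 6 (rho 0.46, permutation p = 0.113 and 0.0762). Their adjusted permutation p-values were 0.831, 0.794, 0.721 and 0.227, and without the 2 farthest rats r was -0.17, 0.21, 0.04 and 0.34. Beside these, Grin2b had an r with the total count of the library of -0.61, -0.51, 0.37 and -0.39 in rat batches 2, 3, 4 and 6, with rho at -0.42, -0.35, -0.02 and -0.61. For Grin2a in the same order r was 0.30, -0.33, -0.01 and -0.33, with rho at 0.42, -0.04, -0.18 and -0.21. With the log2 total count regressed out, the Grin2a and Grin2b coefficient was 0.72 in rat batch 6 (adjusted permutation p = 0.0154), and 0.46 there without the 2 farthest rats (permutation p = 0.0926). In the same setting it was 0.52 in rat batch 4 (adjusted permutation p = 0.0224), and 0.32 there without the 2 farthest rats (permutation p = 0.133).

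**Figure D5:**
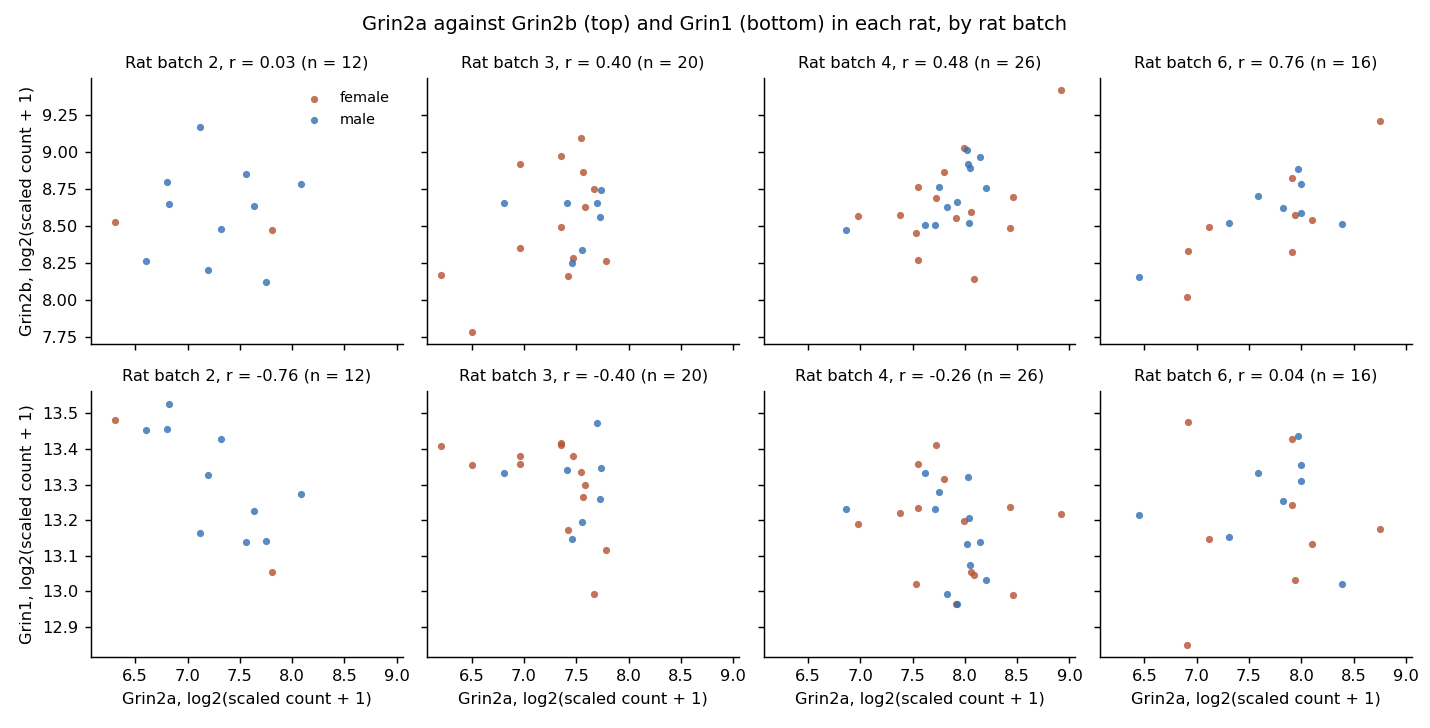
Each point is 1 rat, with the Grin2a log2 level on the horizontal axis and that of Grin2b (top) or Grin1 (bottom) on the vertical axis, 1 column of panels per rat batch, females in brown and males in blue, and Pearson's r and n above each panel. Grin2a and Grin2b rise together most closely in rat batch 6 (r = 0.76), and Grin1 falls as Grin2a rises in rat batch 2 (r = -0.76).

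Over all 74 fitted rats, with the means of rat batch and sex removed, the residual correlation was 0.44 for Grin2a with Grin2b, -0.30 for Grin2a with Grin1 and 0.15 for Grin2b with Grin1. These are descriptions, since all genes of a library share its depth, scaling and tissue composition. Among the 12987 genes with a mean log2 level of at least 5, Grin2a ranked 146th from the top in its correlation with Grin2b, and Grin2b ranked 945th in its correlation with Grin2a. The middle 95% of all correlations ran from -0.32 to 0.39 for Grin2b, from -0.43 to 0.59 for Grin2a and from -0.49 to 0.55 for Grin1, so only the value for Grin2b with Grin2a lay outside, and only when read from Grin2b.

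The genes most like each subunit in this measure were other identifiers. ENSRNOG00000023657 had the highest residual correlation with Grin2a (0.82, 74 rats) and ENSRNOG00000004650 that with Grin1 (0.82). At the opposite end ENSRNOG00000003853 had -0.70 with Grin1 and ENSRNOG00000001441 had -0.67 with Grin2a. For Grin2b the highest value was lower, 0.68. No other gene in the table had values identical to those of a subunit gene.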

How the data were processed

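Per the authors' methods and processing notes, single-end reads of polyadenylated RNA were trimmed with cutadapt, gene counts were estimated with RSEM (Ensembl rat transcriptome, Rnor_6.0), and the authors scaled them to the upper quartile with DESeq2. Versions are not given in the sources used here. The authors dropped genes with a total under 100 reads or with over 1 read in fewer than 25% of libraries, and deposited log2(scaled count + 1). All columns were matched to samples (0 without one). Undoing the logarithm gave whole numbers to within 0.0004%. Each library's scaling factor was recovered from the pattern of whole scaled counts (search between 0.55 and 2.5, counts of 12 to 400), which gave total and recovered counts. Factors ran from 0.708 to 2.183, and a true factor outside the search would be misread. On simulated data, 73 of 75 factors came back within 1% (17180 genes).

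The log2 values of all 17180 genes were compared, as deposited, with limma 3.58.1 (R 4.3.3, trend on intensity), with Benjamini-Hochberg adjustment and a threshold of 0.05, on 74 libraries (rat batch 5 left out). Sex had rat batch as a covariate and rat batch had sex. Pairs of rat batches were contrasts of the same fit, and the interaction used rat batches 3, 4 and 6. Ratios and correlations were tested by two-sided permutation (100000 resamples, smallest p 1e-05, numpy 2.4.6, scipy 1.17.1), adjusted over 6 and 12 tests. The tests were tried on simulated data. Named genes were the 3 subunits and, by rule, the genes with the highest residual correlation with each among those with a mean log2 level of at least 5, and opposite genes were added after values were seen. Lists of other receptor and marker genes were not analysed here, as no map from identifiers to symbols was used. The subunits and lists were chosen with earlier results of these data known. Alternatives were a pseudocount of 8, a minimum mean log2 level of 3, quantile normalization, voom on recovered counts with TMM factors, rank-based inverse normal transformation, total count, 20 expression components or column run as covariates, and leaving out the 2 shallowest libraries or a rat batch.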

Additional observations from a re-analysis of the deposited data

Results flagged for a closer look

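Groups of 4 to 10 rats of a sex and rat batch were searched for a rat far from the rest, in 24 checks of levels and ratios, of which chance alone would give about 1.2. There were 3. Among the 7 males of rat batch 3, male rat 4 had a Grin2a log2 level of 6.81 against 7.41 to 7.74 in the others, a gap of 0.644 of the whole range, and a Grin2a to Grin1 log2 ratio of -6.52 against -5.93 to -5.53, a gap of 0.596. Its recovered total count was 16018469, within the range of its rat batch. Among the 8 males of rat batch 6, male rat 10 had a Grin2b to Grin1 log2 ratio of -5.05 against -4.72 to -4.50, a gap of 0.599, with a total count of 20236481.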

How the results depend on the processing

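No paired analysis was possible because each library came from a different rat, so the design holds no pairs. Of 228 values recomputed under alternatives, 175 changed neither sign nor side of the threshold or, for counts of calls, stayed within 1.5 times the reported count. Of the rest, 21 lost their call, 2 gained one, 15 changed sign and 15 moved further. No sex difference of a subunit passed under any alternative. With 20 expression components as covariates the sex differences were -0.019, -0.57 and -0.72 for Grin1, Grin2a and Grin2b (adjusted p by limma 0.989, 0.802 and 0.641, with SE of 0.13, 0.32 and 0.27), and 8 genes were called by sex and 10 by rat batch. The sex difference of Grin1 was -0.0014 without rat batch 6, -0.00037 within rat batch 3 and -0.014 within rat batch 4, and that of Grin2a -0.036 within rat batch 4 and -0.0079 within rat batch 6. Sex calls numbered 9 within rat batch 4 and 8 within rat batch 6. The interaction called 1 gene with rat batch 2 included and 1 with a pseudocount of 8.

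The adjusted p of Grin1 between rat batches (limma F test) was 0.413 with quantile normalization, 0.0573 with total count, 0.969 with 20 components, 0.138 without rat batch 3, 0.309 without rat batch 4 and 0.628 with column run. That of Grin2a was 0.936 with 20 components, 0.0761 without rat batch 4 and 0.907 with column run. Genes called between rat batches were 5723 without rat batch 3, 10 with 20 components and 169 with column run. The components are computed from the same expression values, so the fit with them cannot show whether the rat batches differ. Of the 5 calls between pairs, settings added once the data had been seen left 2 with quantile normalization, 3 with voom, 4 with total count, 4 without the 2 shallowest libraries and 0 with column run.

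Sex differences of ratios changed sign for Grin2a to Grin2b (-0.0035 without rat batch 2, -0.056 without rat batch 3, -0.088 within column run 3) and Grin2a to Grin1 (-0.012 without rat batch 3, -0.045 within column run 3). Variance between rat batches in Grin2a to Grin2b was 14.03% without rat batch 3, 13.4% without rat batch 4, 0.135% within column run 1 and 0.585% within column run 3. In Grin2a to Grin1 it was 13.7% without rat batch 4, 0.107% within run 1 and 4.27% within run 3. In Grin2b to Grin1 it was 11.1%, 2.45%, 0.00017% and 8.56% under the same 4 settings as the first ratio. The runs were compared after seeing the data.

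Correlations that passed numbered 2 as reported, 3 with sex means removed, 3 with total count regressed out, 1 with scaling by total count and 2 without the 2 shallowest libraries. Grin2a with Grin1 in rat batch 2 was the one lost, and Grin2a with Grin2b in rat batch 4 the one gained. Grin2a with Grin1 in rat batch 6 was -0.11 with total count regressed out, and Grin2b with Grin1 in rat batch 2 was 0.061 without the 2 shallowest libraries. Removing 20 components left residual SDs of 0.083, 0.21 and 0.18 for Grin1, Grin2a and Grin2b. The causes were not tested. Counting error made up 6.86% of the residual variance of Grin2b, 5.19% of that of Grin2a and 1.14% of that of Grin1.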
